A study of Homo sapiens with 8 samples.

Results

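The mTOR inhibitor AZD8055 (mTORi) was present in 4 of the 8 libraries of the series and absent from the other 4, and the comparison described here sets these 4 against 4. The libraries were chosen by the treatment in their labels, with no measured value used. With mTORi there were the mTORi and the combination (BETp + mTORi) libraries of the cholangiocarcinoma (CCA) cell lines SNU1079 and SSP25. Without it there were the vehicle and the BETp libraries of the same lines. BETp is ARV825, a degrader that brings BET bromodomain proteins to the ubiquitin ligase cereblon. The labels give 50 nM for mTORi, 40 nM for BETp and 0.01% DMSO for vehicle, all for 48 h, and no doses for the combination. Both lines are labelled as wildtype and of liver origin, although the study describes mutations in SNU1079, of IDH1 among others, and all were grown in DMEM with serum. Each line and treatment had 1 library, so the libraries form 4 pairs that differ by label in the presence of mTORi: mTORi against vehicle and combination against BETp, in each line. Whether the combination had the same BETp dose as BETp alone is not given. Whether the 4 pairs were grown as separate cultures is not given. The p-values rest on the spread between these pairs, moderated over all genes. Differences between the lines and between both BETp states are included in that spread. The question was which genes move the same way in all 4 pairs.

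As background, mTOR is the kinase of the complexes mTORC1 and mTORC2, which couple growth to nutrients and growth factors. Active mTORC1 raises translation, above all of mRNAs that begin with a terminal oligopyrimidine (TOP) tract, which encode ribosomal proteins and translation factors. It also raises the activity of ATF4, the transcription factor of amino acid synthesis, uptake and tRNA charging, and of HIF1A, SREBP and MYC, which serve glycolysis, lipid synthesis and ribosome production. Inhibitors of mTOR are known to act on translation and phosphorylation first, and mRNA levels do not report on either.

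Levels are given in TPM, in which transcripts share a fixed total per library and sequencing depth is lost, so the precision of any single value is unknown. For each gene the 4 values with mTORi, and then the 4 without it, follow the order SNU1079 without BETp, SNU1079 with BETp, SSP25 without BETp and SSP25 with BETp. A log2 difference is the mean over the 4 pairs of mTORi present minus absent on the log2(TPM + 1) scale. This scale understates the change of low genes. The ± is the moderated SE of limma's fit (n = 4 pairs from 2 lines). In it each gene's variance is drawn toward a trend over all genes, so it is not the spread of the 4 pairs alone. The fit took the pairs as independent, although pairs of 1 line resembled each other more than pairs of different lines, as given below. For an effect across lines, the SE and the p-values may thus be too small. Calls are genes with an adjusted p under 0.05 in limma's paired fit, adjusted by the Benjamini-Hochberg method over 16060 genes. At 1 TPM or more, a library held 13308 to 14526 genes. Of 15 markers of biliary epithelium, 13 reached 1 TPM in SNU1079 and 11 in SSP25. The biliary markers summed to 8252 to 9771 TPM with mTORi, against 10510 to 11812 TPM without it, in SNU1079, and to 3606 to 3949 TPM against 4155 to 4186 TPM in SSP25. The 10 hepatocyte markers, of which APOB and APOC3 were at 0 throughout, summed to 11.8 to 25.2 TPM with mTORi, against 24.9 to 51.0 TPM without it, in SNU1079, and to at most 0.83 TPM in SSP25. The part of these shifts in the results was not tested.

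The paired fit called 105 genes, and far more of them were lower than higher with mTORi. Of these, 93 genes (0.579% of those tested) fell and 12 genes (0.0747%) rose, and 99 are protein-coding. All 105 had the same sign in all 4 pairs. A call needs a mean that is large against the spread between these same pairs, so a shared sign is largely fixed by the call. The falls reached -1.87 ± 0.12 for DDIT4, and the rises 0.95 ± 0.09 for SCG5. Apart from calls, 4202 genes (26.2%) were lower in all 4 pairs and 737 (4.59%) were higher in all 4, while 60 genes (0.374%) were lower and 10 (0.0623%) higher by at least 0.5 in every pair. At an unadjusted p under 0.05 there were 3257 lower and 465 higher genes. The whole scale was shifted down: the median of all genes was -0.11, with pair medians of -0.10 and -0.14 in SNU1079 and -0.11 and -0.07 in SSP25. Counted from its own pair's median, 2082 genes (13%) lay below in all 4 pairs and 2055 (12.8%) above. All 105 called genes stayed on their side in all 4 pairs, which the calls also make likely. The shares given here are the background against which the list counts below stand.

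These calls depend on how libraries were scaled. When the median difference of each pair was set to 0, an alternative chosen after seeing the data, 6 genes were called higher and 7 lower, and with quantile normalization 4 higher and 7 lower, in place of 12 and 93. DDIT4, AKR1C2, CHAC1, S100A4 and SCG5 were the 5 genes called under each of the scalings tried, and all 105 kept their direction. Leaving out any 1 pair left 0 calls, or 2 without the SSP25 pair of mTORi against vehicle (DDIT4 and CCL2), at 2401 to 3459 genes with an unadjusted p under 0.05.

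**Figure D1:**
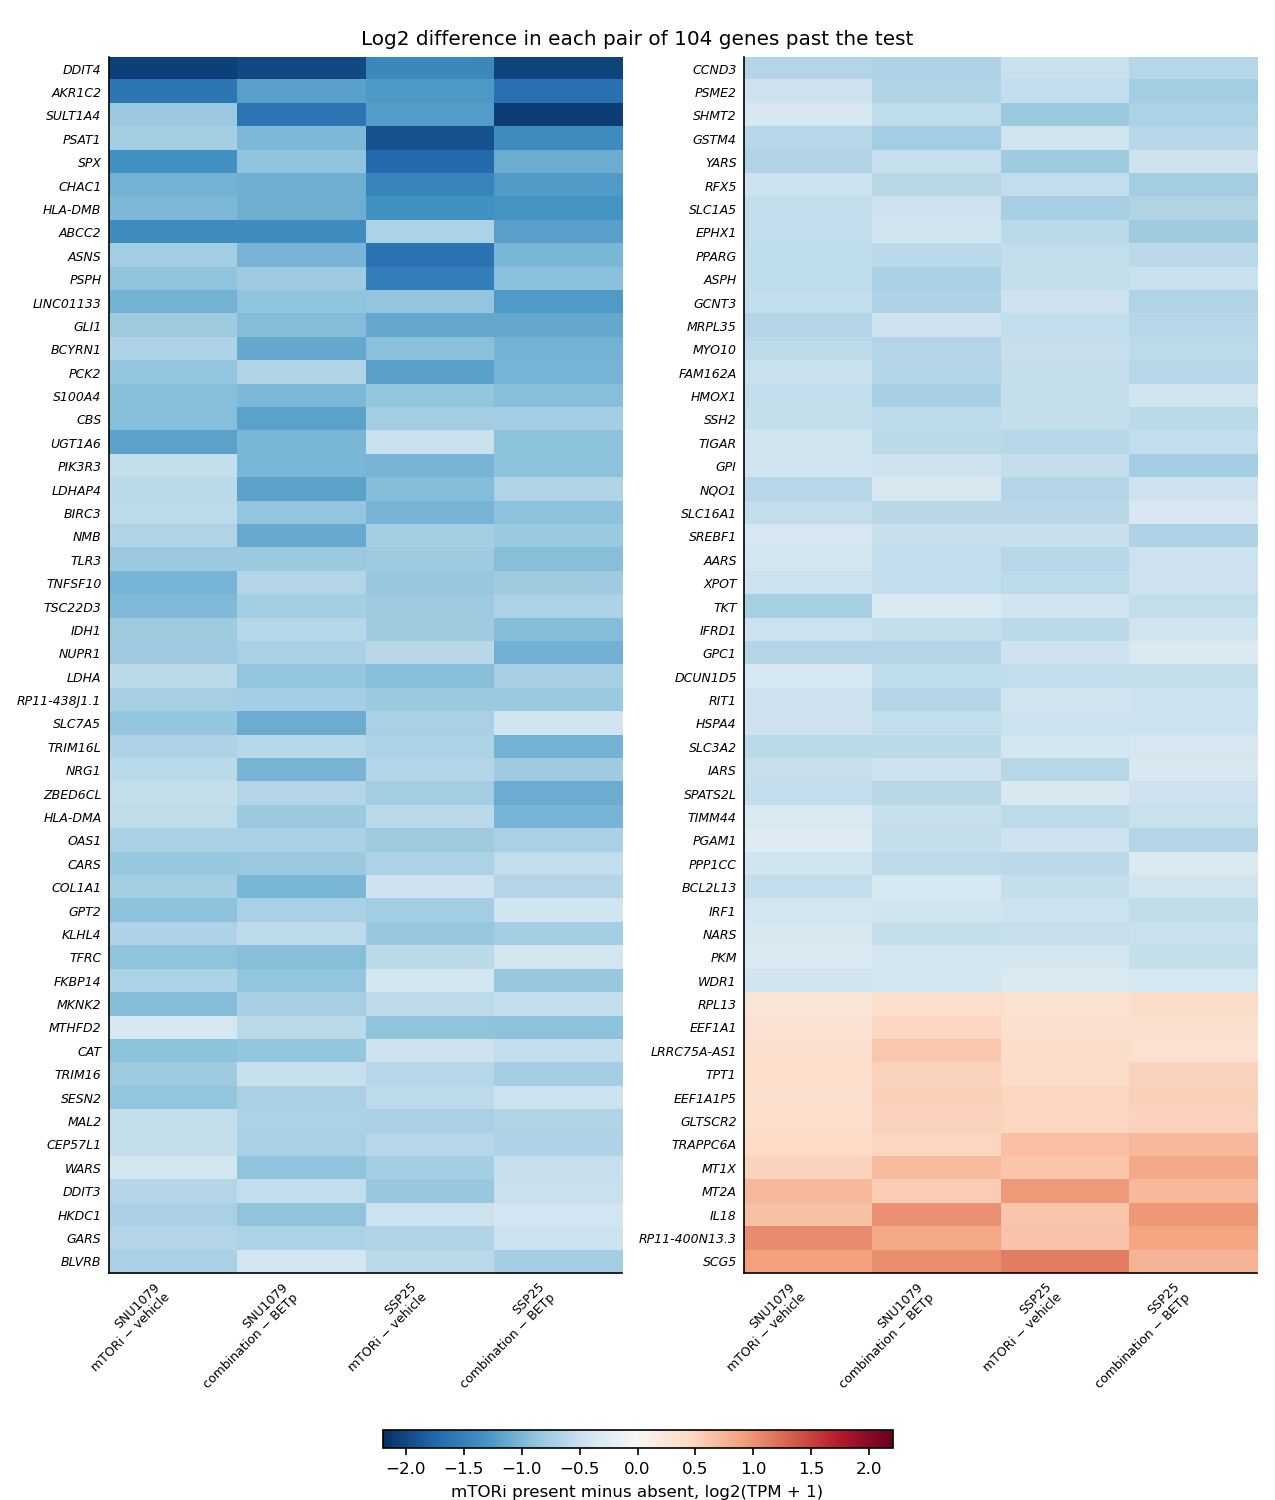
Log2 differences, mTORi present minus absent, on the log2(TPM + 1) scale, for 104 of the 105 genes past the limma test (rows, ordered by their mean, in 2 blocks) in each of the 4 pairs (columns). Blue cells are lower and red cells higher with mTORi. Each row keeps 1 colour across both lines and both BETp states, which the call largely fixes, with 92 blue and 12 red rows.

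The pairs resembled each other most within a line. Across the 16060 genes, the differences of both SNU1079 pairs correlated at r = 0.24 (Spearman 0.35) and those of both SSP25 pairs at 0.28 (0.38). Between the lines, the coefficient was 0.03 for both comparisons that involve mTORi against vehicle in SNU1079, and 0.11 and 0.13 for the SNU1079 pair with BETp. Genes are not independent replicates, and pairs of 1 line were compared on the same cell background, so these values carry no test.

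Genes of amino acid supply and of the ATF4 program made up 23 of the 93 falls. The 6 lists joined here hold ATF4 and its stress targets, amino acid transporters and cytosolic tRNA synthetases. They also hold enzymes of serine, folate, methionine, proline, asparagine and glutamine metabolism, and all were chosen with earlier results of these data known. Of 98 genes tested in them, 23 fell and 0 rose in limma's fit (Benjamini-Hochberg adjusted p under 0.05), against 0.579% and 0.0747% of all genes. At an unadjusted p under 0.05, 59 were lower and 2 higher, against 3257 and 465 of all 16060 genes. In all 4 pairs 64 of the 98 were lower and 2 higher, against 26.2% and 4.59% of all genes. The 42 that lay below the pair median throughout stand against 13% of all genes, and the list median was -0.31.

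DDIT4 (GRCh37 chromosome 10, 74033678 to 74035794) encodes REDD1, which restrains mTORC1 under stress, and is itself induced by ATF4. It measured 30.6, 20.6, 26.7 and 15.4 TPM with mTORi, against 129.8, 84.2, 73.2 and 65.8 TPM without it. Every level with mTORi lay below every level without it, in both lines. Its mean was 0.273 times that of the partner libraries on the TPM + 1 scale (-1.87 ± 0.12, adjusted p = 0.0192). CHAC1 (chromosome 15, 41245160 to 41248710), which degrades glutathione and is a marker of ATF4 activity, was at 12.1, 6.88, 13.5 and 15.9 TPM with mTORi, against 25.8, 15.5, 38.6 and 39.2 TPM without it. It fell in every pair by a similar step (-1.20 ± 0.10, adjusted p = 0.0308). ASNS (chromosome 7, 97480989 to 97501854), the asparagine synthetase, had 102, 53.4, 37.4 and 54.3 TPM with mTORi, against 174, 110.4, 117 and 109 TPM without it. Here, too, no library with mTORi reached the lowest of those without (-1.10 ± 0.13, adjusted p = 0.0378). NUPR1, a stress-responsive chromatin protein (-0.79), SESN2, a leucine sensor that holds mTORC1 in check (-0.66), and DDIT3, the transcription factor CHOP (-0.63), completed the 6 called members of the 22 ATF4 genes tested. In that list 13 members were lower and 1 higher in all 4 pairs, with a median of -0.48. TRIB3, a pseudokinase induced by ATF4, was at 109, 44.2, 70.2 and 48.1 TPM with mTORi, against 159, 62.98, 169.8 and 91.4 TPM without it, and CTH, the cystathionine gamma-lyase, at 1.86, 3.4, 13.5 and 18.3 TPM with mTORi, against 3.07, 3.04, 45.1 and 35.2 TPM without it. Neither passed the test (TRIB3 -0.81 ± 0.13, adjusted p = 0.0525, and CTH -0.74 ± 0.27, adjusted p = 0.17). CTH was higher in the SNU1079 library of the combination than in its partner, while TRIB3 was lower in all 4 pairs.

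The mRNA of ATF4 itself was not lower in every pair. It measured 352, 255, 358 and 314 TPM with mTORi, against 332, 241, 473 and 417 TPM without it. The level was above the partner in both SNU1079 pairs and below it in both SSP25 pairs (-0.16 ± 0.11, adjusted p = 0.397, and for the difference between the lines -0.48 ± 0.08, adjusted p = 0.227). ATF4 is known to be controlled largely through translation, which these data do not measure.

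**Figure D2:**
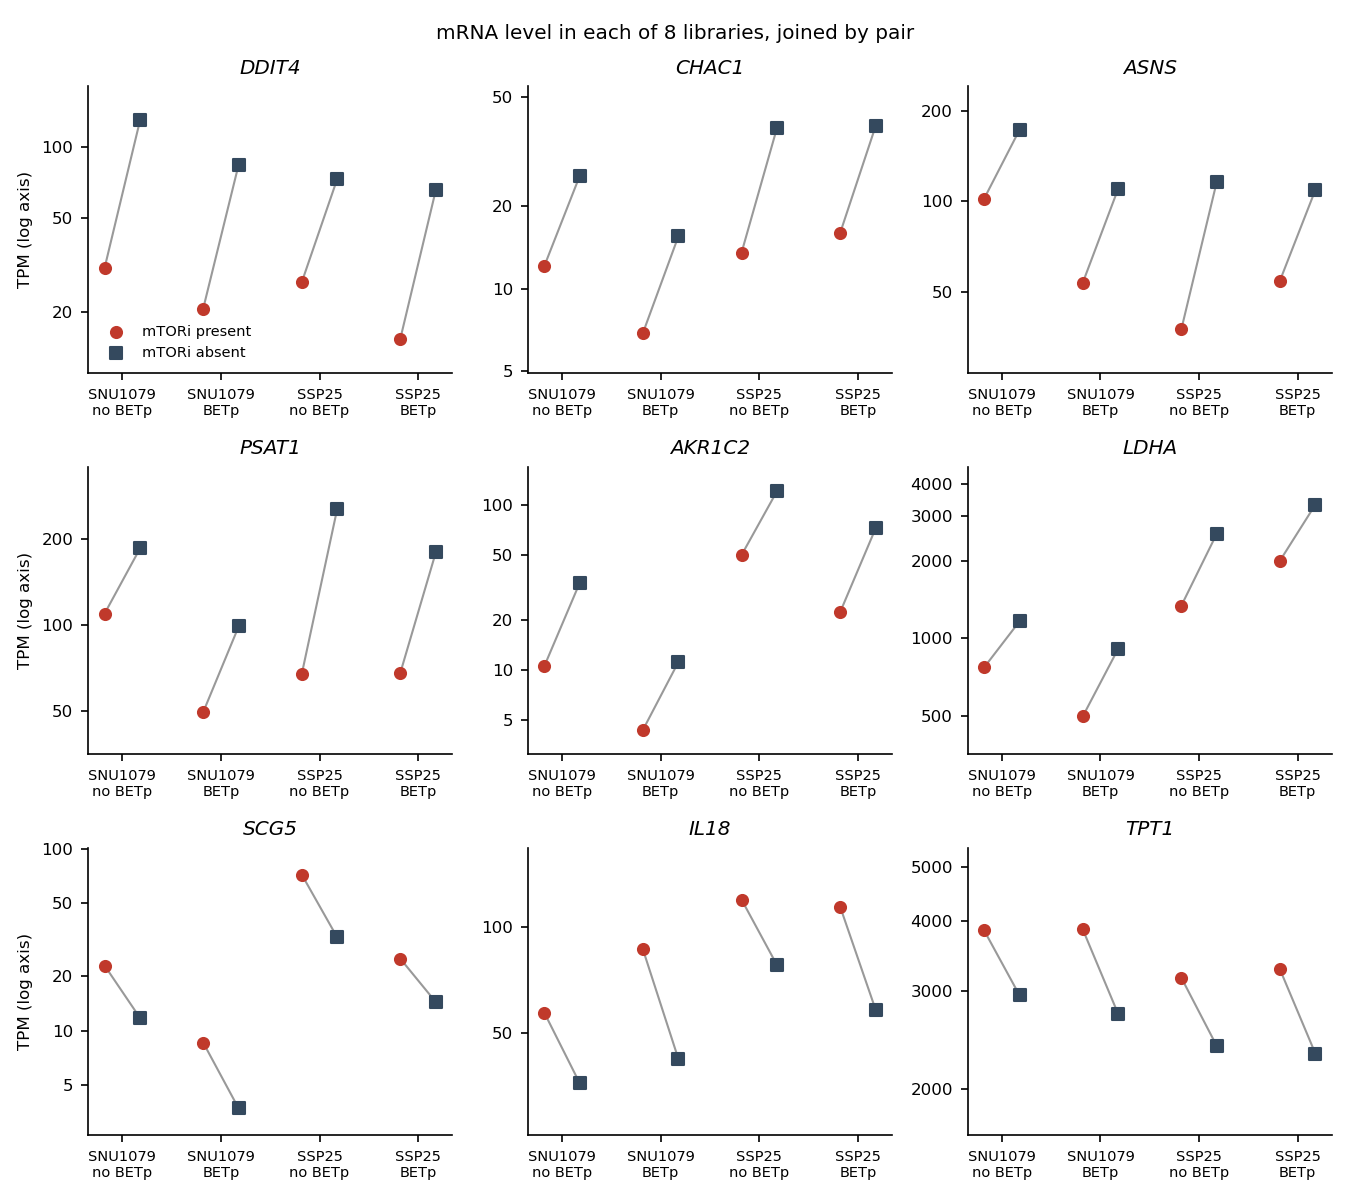
mRNA levels (TPM, log axis) of 9 genes in each of the 8 libraries. In each pair the circle is the library with mTORi and the square to its right its partner without mTORi, and pairs are ordered by line and BETp state. DDIT4, CHAC1, ASNS, PSAT1, AKR1C2 and LDHA lie lower, and SCG5, IL18 and TPT1 higher, with mTORi in all 4 pairs.

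Serine made from glucose feeds the folate cycle, and its 3 enzymes all had lower values. PSAT1 (chromosome 9, 80912041 to 80945009), the aminotransferase of the second step, was at 109, 49.3, 67.1 and 67.8 TPM with mTORi, against 185, 98.5, 254 and 179 TPM without it. The step was larger in SSP25, where both levels with mTORi lay below both without, than in SNU1079 (-1.26 ± 0.18, adjusted p = 0.0484, with a line difference of -0.78 ± 0.20 at adjusted p = 0.252). PSPH (chromosome 7, 56078744 to 56119297), the phosphatase of the last step, measured 117, 76.7, 16.8 and 19.6 TPM with mTORi, against 217, 132, 49.2 and 37.99 TPM without it (-1.02 ± 0.12, adjusted p = 0.0378). PHGDH, the dehydrogenase of the first step, had 0.19, 0.08, 24.4 and 18.5 TPM with mTORi, against 0.24, 0.15, 85.5 and 65.4 TPM without it. SNU1079 thus held almost no PHGDH mRNA in any library, and the values of SSP25 differed by a larger step than the mean over pairs shows (-0.92 ± 0.34, adjusted p = 0.178). The study describes PHGDH as falling in steps, lowest with the combination, as RNA and, by Western blot in SNU1079, as protein. In SSP25 the mRNA was also lowest with the combination, at 18.5 TPM, against 24.4 with mTORi, 65.4 with BETp and 85.5 with vehicle. In SNU1079 it was at most 0.24 TPM in any library. Protein was not measured in the data used here. Of 17 genes tested in the serine and folate list, PSAT1, PSPH and the mitochondrial folate enzymes MTHFD2 (-0.69 ± 0.10) and SHMT2 (-0.61 ± 0.08) were called, and 10 were lower in all 4 pairs. The study examined this pathway on the same samples, so the count is no independent evidence of its direction. SHMT1, the cytosolic hydroxymethyltransferase, did not pass (-0.43 ± 0.12, adjusted p = 0.113).

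Among other amino acid enzymes, CBS (chromosome 21, 44473301 to 44497053), which starts transsulfuration, was at 21.1, 7.69, 64.6 and 51.3 TPM with mTORi, against 41.3, 18.7, 111 and 87.2 TPM without it (-0.91 ± 0.09, adjusted p = 0.0361). GPT2, the mitochondrial alanine aminotransferase, also fell (-0.71 ± 0.10). Uncalled were AHCYL1, a relative of adenosylhomocysteinase (-0.66 ± 0.11, adjusted p = 0.0524), GOT1, the aspartate aminotransferase (-0.45 ± 0.08), and GLUL, the glutamine synthetase (-0.35 ± 0.14). PCK2 (chromosome 14, 24563262 to 24579807), the mitochondrial phosphoenolpyruvate carboxykinase and an ATF4 target outside the lists, measured 23.4, 16.7, 17.4 and 14.3 TPM with mTORi, against 43.8, 27.03, 41.02 and 30.2 TPM without it. All 4 levels with mTORi lay below the lowest without it (-0.94 ± 0.10, adjusted p = 0.0361).

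Of 17 transporters tested, 3 fell: SLC7A5 and SLC3A2, the light and heavy chains of the leucine importer LAT1 (-0.77 ± 0.11 and -0.49 ± 0.07), and SLC1A5, the neutral amino acid carrier ASCT2 (-0.60 ± 0.07). SLC7A5 measured 80.3, 52.2, 93.1 and 107 TPM with mTORi, against 146, 112, 154 and 146 TPM without it, with no overlap. SLC1A4 was lower in all 4 pairs without a call (-0.73 ± 0.15, adjusted p = 0.0705), and the glycine carrier SLC6A9 was expressed in SSP25 only, at 7.99 and 5.45 TPM with mTORi, against 24.8 and 16.3 TPM without it (-0.76 ± 0.30 over all 4 pairs, adjusted p = 0.198).

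Cytosolic tRNA synthetases load each tRNA with its amino acid. Of the 20 tested, 17 were lower with mTORi in every pair, against 26.2% of all genes. In all 4 pairs 14 lay below the pair median, against 13% of all genes, and 0 were higher. The list median was -0.39, with -0.38 in 3 of the pairs and -0.61 in SSP25 without BETp. The 7 called members were CARS (-0.72 ± 0.07), WARS (-0.64 ± 0.09), GARS (-0.62 ± 0.06), YARS (-0.60 ± 0.07), AARS (-0.51 ± 0.06), IARS (-0.49 ± 0.07) and NARS (-0.47 ± 0.06), for cysteine, tryptophan, glycine, tyrosine, alanine, isoleucine and asparagine. CARS, as an example, had 33.8, 21.6, 117 and 111 TPM with mTORi, against 60.9, 38.6, 189 and 163 TPM without it. MARS and TARS, for methionine and threonine, did not pass (-0.75 ± 0.13 and -0.45 ± 0.08, adjusted p = 0.0605 for both). XPOT, the nuclear exporter of tRNAs, fell as well (-0.51 ± 0.06). Among 17 mitochondrial synthetases 0 were called in limma's fit (2 lower at an unadjusted p under 0.05). In all 4 pairs 5 were lower, against 26.2% of all genes. Their list median of -0.14 became 0.01 with quantile normalization.

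The promoters of these genes were searched for the letters TGATGCAA, the composite element that ATF4 binds together with C/EBP factors, and for the looser TGATGNAA, which contains the first, on both strands from 250 bases before to 50 after each RefSeq start. Of the 93 genes that fell, 67 had a RefSeq promoter, and 2 of these (2.99%) held TGATGCAA and 7 (10.4%) TGATGNAA. Among 10417 genes tested that had a promoter the shares were 0.672% and 2.70%, and among all 27305 RefSeq promoters 1.08% and 4.46%. In the 6 joined lists, chosen in part because their genes are known ATF4 targets, 8 of 65 (12.3%) held TGATGCAA and 13 of 65 (20%) TGATGNAA. Of those 13 genes 12 were lower in all 4 pairs and 4 (ASNS, CHAC1, SLC1A5 and SLC3A2) were called. In the joined lists as a whole, 64 of 98 genes tested were lower in all 4 pairs and 23 were called lower. The exception in direction among the 13 was ATF3, and whether a match goes with the fall was not tested. A match is a run of letters, not a measured binding site, and DDIT4 and PSAT1 fell without one in this window. Parts of 3 matching promoters are shown because their genes carry the fall, from RefSeq (GRCh38.p14) and placed on GRCh37 by exact match, 5′ to 3′ along the gene, with the match in capitals. In CHAC1 the element stands on the opposite strand. By GENCODE, SLC1A5 spans 47278140 to 47291851, so its stretch lies inside the gene, before an internal RefSeq start. The stretches of CHAC1 and ASNS also lie inside the GENCODE spans given above.
CHAC1 (chr15:41245419-41245513, plus strand): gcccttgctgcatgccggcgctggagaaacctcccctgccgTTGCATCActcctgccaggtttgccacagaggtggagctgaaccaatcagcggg
ASNS (chr7:97501735-97501834, minus strand): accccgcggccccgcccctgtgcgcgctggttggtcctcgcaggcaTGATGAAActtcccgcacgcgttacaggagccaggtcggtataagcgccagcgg
SLC1A5 (chr19:47288115-47288214, minus strand): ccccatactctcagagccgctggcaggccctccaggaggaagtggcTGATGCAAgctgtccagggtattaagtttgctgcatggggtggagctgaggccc

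**Figure D3:**
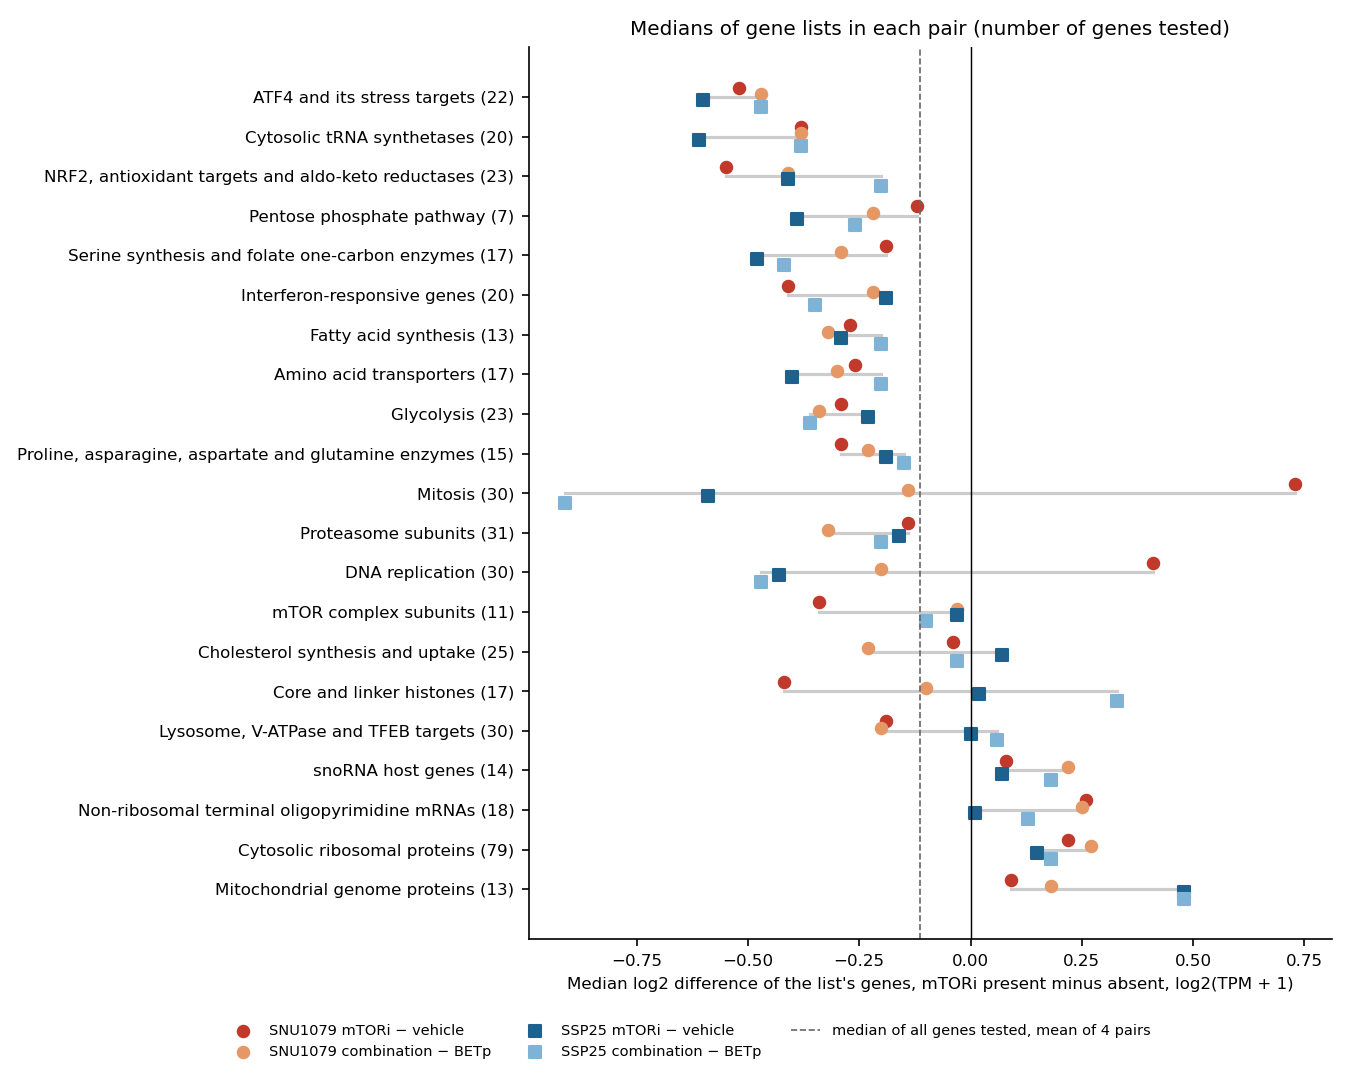
Medians of the log2 differences of 21 gene lists (rows, with the number of genes tested) in each of the 4 pairs, circles for SNU1079 and squares for SSP25. The dashed line is the median of all genes, -0.11. All 4 medians of the ATF4 and tRNA synthetase lists lie left of it, all 4 of the ribosomal protein list right of 0, and those of mitosis run from -0.91 to 0.73.

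Of 23 NRF2 and antioxidant genes, which serve detoxification and redox balance, 4 fell. AKR1C2 (chromosome 10, 5029967 to 5060223), an aldo-keto reductase of steroid and carbonyl metabolism, was at 10.6, 4.34, 49.9 and 22.5 TPM with mTORi, against 33.9, 11.2, 122 and 72.4 TPM without it. The step was close to the same size in both lines although levels differed (-1.43 ± 0.10, adjusted p = 0.0192). Its near-identical neighbour AKR1C1 was lower in all 4 pairs without a call (-1.16 ± 0.17, adjusted p = 0.0512), and reads may be split between such copies. AKR1B10, another reductase, had 15.9, 12.8, 84.2 and 51.98 TPM with mTORi, against 41.1, 18.2, 298 and 227 TPM without it (-1.43 ± 0.25, adjusted p = 0.06). ABCC2 (chromosome 10, 101542397 to 101612351), the export pump MRP2 of bile canaliculi, measured 6.03, 4.5, 24.1 and 14.6 TPM with mTORi, against 17.3, 13.2, 39.5 and 34.6 TPM without it (-1.16 ± 0.13, adjusted p = 0.0361). NQO1, a quinone reductase, and HMOX1, the heme oxygenase, fell by smaller steps (-0.53 ± 0.07 and -0.56 ± 0.07). In the list as a whole 16 were lower and 1 higher in all 4 pairs, against 26.2% and 4.59% of all genes. The median of this list was -0.38. Outside it, and named after their values were seen, CAT, the catalase (-0.69 ± 0.09), UGT1A6, a glucuronosyltransferase that shares exons with its gene cluster (-0.89 ± 0.11), EPHX1, an epoxide hydrolase (-0.59 ± 0.07), and GSTM4, a glutathione transferase (-0.61 ± 0.08), also fell. SULT1A4 (chromosome 16, 29471234 to 29476287), a sulfotransferase with a near-identical copy, had 2.26, 1.73, 6.61 and 1.17 TPM with mTORi, against 4.76, 7.33, 16.8 and 8.12 TPM without it (-1.43 ± 0.20, adjusted p = 0.0484), and its assignment to 1 of both copies is uncertain.

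Of 23 glycolytic genes 5 fell and 0 rose. LDHA (chromosome 11, 18416107 to 18429972), which reduces pyruvate to lactate, measured 771, 496, 1339.9 and 2006 TPM with mTORi, against 1166, 911, 2558 and 3319.5 TPM without it (-0.78 ± 0.07, adjusted p = 0.0349). Its level stayed higher in SSP25 with mTORi than in SNU1079 without it, so the step is seen within each line only. GPI (-0.55 ± 0.07), SLC16A1, the lactate carrier MCT1 (-0.53 ± 0.07), PGAM1 (-0.48 ± 0.07) and PKM, the pyruvate kinase (-0.42 ± 0.05), fell too. In that list, 15 were lower and 0 higher in all 4 pairs, against 26.2% and 4.59% of all genes. In all 4 pairs 13 lay below the pair median, against 13% of all genes, and the list median was -0.27. PFKFB2 and ALDOC were lower in all 4 pairs without a call (-0.52 ± 0.12 and -0.50 ± 0.11). In the pentose phosphate pathway TKT, the transketolase, was called (-0.51 ± 0.07) as 1 of 7, while RPE, the ribulose-phosphate epimerase, was not (-0.37 ± 0.09). IDH1, the cytosolic isocitrate dehydrogenase, whose normal form makes NADPH and which is mutated in SNU1079 by the study's account, fell in a range of -0.96 to -0.63 over the pairs (-0.79 ± 0.07, adjusted p = 0.0349). Of 17 hypoxia genes 0 were called in limma's fit (6 lower at an unadjusted p under 0.05). In all 4 pairs 7 were lower, against 26.2% of all genes.

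For lipid synthesis, SREBF1, the transcription factor SREBP1, had 56.6, 45.2, 57.6 and 59.6 TPM with mTORi, against 73.3, 64.7, 82.7 and 95.8 TPM without it. No library with mTORi reached the lowest without it (-0.52 ± 0.07, adjusted p = 0.0468). SCD, the stearoyl-CoA desaturase, and ELOVL6, a fatty acid elongase, were lower in all 4 pairs and missed the threshold (-0.57 ± 0.10 and -0.67 ± 0.12, adjusted p = 0.0605 for both). The 13 fatty acid genes had a median of -0.28, with 8 lower in all 4 pairs. For cholesterol synthesis and uptake, 0 of 25 genes were called in limma's fit (5 lower at an unadjusted p under 0.05). In all 4 pairs 6 were lower, against 26.2% of all genes. The list median of -0.07 became 0.07 with quantile normalization, 0.04 with centring and 0.02 after rescaling.

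Among mRNAs that were higher with mTORi, translation genes were the broadest group, in small steps. TPT1 (chromosome 13, 45907606 to 45915419), a TOP mRNA, measured 3852, 3869.7, 3167 and 3278 TPM with mTORi, against 2943, 2725, 2386 and 2312 TPM without it. The groups did not overlap (0.45 ± 0.05, adjusted p = 0.0361). EEF1A1 (chromosome 6, 74199031 to 74235310), the elongation factor that brings tRNAs to the ribosome, had 8915, 8503, 11633 and 11343 TPM with mTORi, against 7099, 6190.1, 9133 and 8857 TPM without it (0.37 ± 0.05, adjusted p = 0.0467), and its pseudogene EEF1A1P5 rose beside it (0.47 ± 0.07), though reads may be shared between them. With quantile normalization EEF1A1 differed by 0.06 and was not called. RPL13, a protein of the large subunit, was at 5028, 5012, 2394 and 2587 TPM with mTORi, against 4146, 3829.9, 1885 and 1959.7 TPM without it (0.35 ± 0.05, adjusted p = 0.0484). GLTSCR2, a nucleolar protein of ribosome assembly, measured 374, 376, 103 and 107 TPM with mTORi, against 284, 263, 73.7 and 75.7 TPM without it (0.47 ± 0.05, adjusted p = 0.0378). Genes of ribosome biogenesis as a list did not rise. Of 33 tested, 0 were called in limma's fit (11 lower and 0 higher at an unadjusted p under 0.05). In all 4 pairs 14 were lower and 0 higher, against 26.2% and 4.59% of all genes. The list median was -0.15, or -0.02 with quantile normalization. Among snoRNA host genes, many of whose transcripts also begin with pyrimidines, LRRC75A-AS1 was called (0.42 ± 0.06), while GAS5 (0.46 ± 0.07, adjusted p = 0.0524) and EPB41L4A-AS1 (0.31 ± 0.13) were not. Like EEF1A1, the genes TPT1 (0.35), RPL13 (0.22) and LRRC75A-AS1 (0.41) were not called with quantile normalization, while GLTSCR2 was (0.56).

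Of the 79 cytosolic ribosomal protein genes, RPL13 was the 1 that was called. Even so, 65 were higher and 2 lower in all 4 pairs, against 4.59% and 26.2% of all genes, and 74 lay above the pair median in all 4. The list median was 0.21 (0.10 with quantile normalization, 0.31 with centring), and RPL23 (0.36 ± 0.05, adjusted p = 0.0512) and RPL31 (0.34 ± 0.05, adjusted p = 0.0516) were the uncalled members furthest from 0. RPS6, whose phosphorylation is the usual readout of mTORC1, measured 2098, 1893, 2511 and 2309 TPM with mTORi, against 1595, 1375, 2296 and 1983 TPM without it as mRNA (0.30 ± 0.07, adjusted p = 0.0831). The share of the TPM total taken by these mRNAs was 22.1%, 20.6%, 14.5% and 13.4% with mTORi, against 19.1%, 17.0%, 12.9% and 11.9% without it. Of 18 other TOP mRNAs 8 were higher and 0 lower in all 4 pairs, with a median of 0.15, and 2 were called. EEF1B2, an exchange factor of EEF1A1, and EIF3F, an initiation factor subunit, were higher in all 4 pairs without a call (0.34 ± 0.08 and 0.26 ± 0.06).

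A TOP mRNA starts with C followed by a run of C or T. At the RefSeq start, a C with at least 4 further pyrimidines was found for 47 of 63 ribosomal protein genes with a promoter (74.6%) and 11 of 12 other TOP genes (91.7%), a property by which the second list is defined, against 7.31% of genes tested and 5.14% of all genes. Among the 12 genes that rose, 7 had a promoter, and EEF1A1, TPT1 and RPL13 were the 3 with such a start. Their start sites are shown with the pyrimidine run in capitals, 15 bases before and 15 from the start on, from RefSeq (GRCh38.p14) placed on GRCh37 by exact match.
EEF1A1 (chr6:74230741-74230770, minus strand): gtcgccgtgaacgttCTTTTTCgcaacggg
TPT1 (chr13:45915304-45915333, minus strand): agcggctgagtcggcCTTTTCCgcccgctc
RPL13 (chr16:89627075-89627104, plus strand): ttgcggggccgcttcCTTTCCgctcggctg

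Transcripts of the mitochondrial genome took a larger share with mTORi, above all in SSP25. Their share was 15.3%, 19.2%, 8.64% and 10.1% with mTORi, against 14.4%, 17.1%, 5.99% and 7.22% without it. Of the 13 protein-coding genes 10 were higher in all 4 pairs and 0 were called in limma's fit (11 higher at an unadjusted p under 0.05), with list medians of 0.09 and 0.18 in SNU1079 and 0.48 in both SSP25 pairs. TPM values share 1 total, and when each library was rescaled without mitochondrial and ribosomal protein mRNAs the median of all genes was -0.04 in place of -0.11. The mitochondrial share can also vary with RNA quality, and its part in the other results was not tested. Of 47 nuclear-encoded respiratory chain subunits 0 were called in limma's fit (27 lower at an unadjusted p under 0.05), 31 were lower in all 4 pairs and 15 of them below the pair median. Their median was -0.17, or -0.07 with quantile normalization and with centring and -0.08 after that rescaling. MRPL35, a mitochondrial ribosomal protein, fell (-0.57 ± 0.07), as 1 of 56 in its list, where 29 were lower in all 4 pairs.

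**Figure D4:**
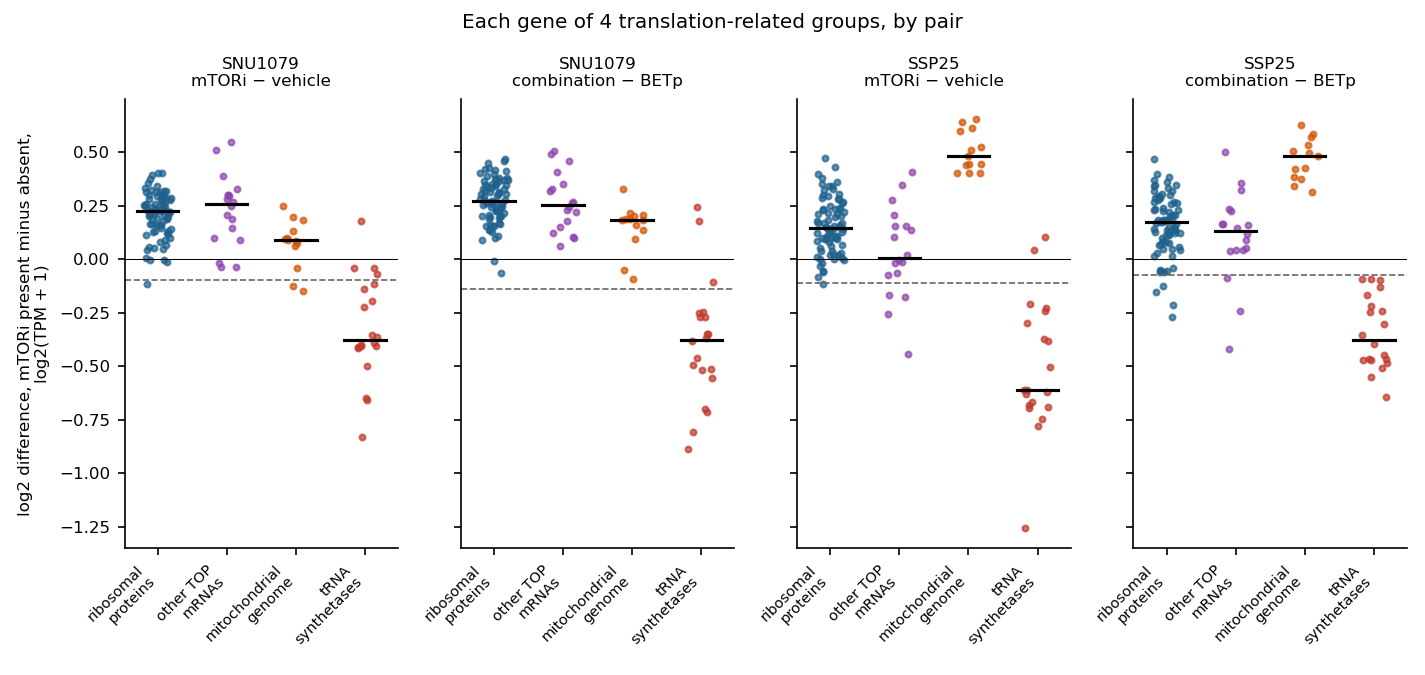
Log2 difference, mTORi present minus absent on the log2(TPM + 1) scale, of each gene (points, spread sideways for legibility) of 4 groups in each of the 4 pairs, with the group median as a bar and the median of all genes as a dashed line. Ribosomal protein genes sit mostly above 0 in every pair (medians of 0.15 to 0.27), tRNA synthetases mostly below -0.11, and mitochondrial genes are highest in SSP25.

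Most of the larger single rises lay outside translation. SCG5 (chromosome 15, 32933877 to 32989299), a chaperone of secretory granules, measured 22.8, 8.61, 72.05 and 24.8 TPM with mTORi, against 11.8, 3.74, 32.5 and 14.3 TPM without it. Levels differed between lines and with BETp, and the groups overlapped, but each library with mTORi exceeded its partner (0.95 ± 0.09, adjusted p = 0.0361). IL18 (chromosome 11, 112013976 to 112034819), a cytokine that epithelia store as a precursor, had 57.1, 86.2, 119 and 114 TPM with mTORi, against 36, 42.2, 77.8 and 58.2 TPM without it (0.81 ± 0.09, adjusted p = 0.0361). The metallothioneins MT2A and MT1X (chromosome 16, 56642496 to 56643409 and 56716382 to 56718108), small proteins that bind zinc and copper, both rose. MT2A was at 691, 728, 1295 and 1916 TPM with mTORi, against 418, 497, 678 and 1163 TPM without it (0.73 ± 0.07, adjusted p = 0.0361). MT1X was at 239, 247, 70.9 and 126 TPM with mTORi, against 169, 152, 46.1 and 70 TPM without it (0.66 ± 0.07, adjusted p = 0.0361), and reads may be shared within this family. TRAPPC6A, a subunit of a vesicle-tethering complex, rose by 0.57 ± 0.08 (adjusted p = 0.0451). GAS6, the ligand of TAM receptor kinases, was higher in all 4 pairs and missed the threshold, at 100.1, 75.4, 218 and 161 TPM with mTORi, against 66.1, 55.1, 86.8 and 82.5 TPM without it (0.83 ± 0.14, adjusted p = 0.06). The same held for WISP2 (0.63 ± 0.11) and C11orf80 (0.54 ± 0.10), both at adjusted p = 0.0605.

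Some immune genes fell as well. HLA-DMB (chromosome 6, 32902406 to 32908805) and HLA-DMA, which load peptides onto MHC class II molecules, were both called. HLA-DMB measured 9.64, 5.01, 2.52 and 1.52 TPM with mTORi, against 20.04, 11.6, 7.9 and 5.3 TPM without it (-1.18 ± 0.11, adjusted p = 0.0361), and HLA-DMA 21.7, 20.6, 27.1 and 12.2 TPM with mTORi, against 32.3, 36.7, 41.2 and 26 TPM without it (-0.75 ± 0.10). RFX5, a transcription factor of MHC genes, fell without overlap between the groups (-0.60 ± 0.08). In the interferon list OAS1, which senses double-stranded RNA (-0.73 ± 0.09), and IRF1, a transcription factor (-0.47 ± 0.06), fell among 20 genes, of which 11 were lower and 0 higher in all 4 pairs. IFIT1 (-0.74 ± 0.14, adjusted p = 0.0651) and IFI44L (-0.67 ± 0.13, adjusted p = 0.0649) were lower in all 4 pairs without a call. The chemokine CCL2 had the largest difference of its list, 62.9, 26.5, 16.5 and 1.62 TPM with mTORi, against 204, 107, 22.98 and 7.33 TPM without it, and did not pass (-1.45 ± 0.24, adjusted p = 0.0529), nor did CXCL2 (-0.62 ± 0.13). PTPRC, the pan-leukocyte marker, stayed under 1 TPM in all 8 libraries, and of 9 leukocyte markers CD68 was the 1 that reached it in SNU1079, with CD14 beside it in SSP25.

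S100A4 (chromosome 1, 153516089 to 153522612), a calcium-binding protein of motile cells, fell by nearly the same step in all pairs, which lay between -0.99 and -0.86. It was at 29.01, 17.3, 36.03 and 20.8 TPM with mTORi, against 56.2, 35.3, 66.4 and 40.5 TPM without it (-0.93 ± 0.07, adjusted p = 0.0192). COL1A1, a collagen chain and fibroblast marker, fell in the fit (-0.72 ± 0.10) and was abundant in SNU1079 alone, at 599, 272, 1.29 and 0.91 TPM with mTORi, against 1003, 546, 2.16 and 2 TPM without it. Of the other fibroblast markers, DCN was at 0 in all SNU1079 libraries, and ACTA2 (0.14 ± 0.14), PDGFRB (-0.21 ± 0.14) and LUM (0.12 ± 0.10) did not pass. LUM was at 0.12, 0.09, 24.9 and 9.39 TPM with mTORi, against 0, 0.03, 22.4 and 8.93 TPM without it, higher in all 4 pairs. HSPA4, a cytosolic chaperone, was the 1 called gene of 22 chaperones (-0.49 ± 0.05), with CHORDC1 (-0.47 ± 0.08) and DNAJB1 (-0.24 ± 0.09) uncalled. CCND3, a G1 cyclin, fell (-0.61 ± 0.07), at 49.8, 39.1, 54.97 and 39.5 TPM with mTORi, against 78.1, 63.4, 77.6 and 61.4 TPM without it, with no overlap. CCND1, the cyclin D of the same step, was higher in all 4 pairs without a call (0.37 ± 0.07, adjusted p = 0.0666), and CCNG1 was lower (-0.35 ± 0.06, adjusted p = 0.0605).

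Among mRNAs of the mTOR pathway itself, DDIT4 and SESN2, described above, were the 2 that were called. MTOR (chromosome 1, 11166592 to 11322613) measured 9.21, 9.45, 22.5 and 22.3 TPM with mTORi, against 11.9, 13.3, 24.7 and 24.1 TPM without it (-0.26 ± 0.09, adjusted p = 0.172). RPTOR (-0.17 ± 0.08), RICTOR (0.04 ± 0.09) and MLST8 (-0.08 ± 0.07), the scaffolds and shared subunit of the complexes, did not pass, and MLST8 changed sign to 0.03 with pair medians set to 0. Of 11 complex subunits 0 were called in limma's fit (3 lower at an unadjusted p under 0.05) and 4 were lower in all 4 pairs, and DDIT4 and SESN2 were 2 of 31 upstream regulators. SESN3 (-0.51 ± 0.20) and GATSL3, the arginine sensor CASTOR1 (-0.35 ± 0.10), were lower in all 4 pairs without a call. SESN3 was at most 0.17 TPM in SSP25. Its fall rests on SNU1079, at 1.64 and 3.16 TPM with mTORi, against 4.21 and 6.8 TPM without it. Among the substrates, EIF4EBP1, the brake on cap-dependent translation, was at 112, 82.8, 167 and 136 TPM with mTORi, against 151, 101, 261 and 196 TPM without it (-0.47 ± 0.07, adjusted p = 0.0516), RPS6KB1, the S6 kinase, differed by -0.21 ± 0.12 and AKT1 by -0.12 ± 0.06 (0.02 with quantile normalization). MYC was higher in all 4 pairs without a call (0.30 ± 0.08, adjusted p = 0.101).

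Genes of mitosis, as a list, did not move the same way across the pairs. Of 30 mitosis genes 0 were higher and 0 lower in all 4 pairs and 0 were called in limma's fit (0 at an unadjusted p under 0.05). Their median was 0.73 for mTORi against vehicle in SNU1079, -0.14 for combination against BETp in SNU1079, and -0.59 and -0.91 in the same order in SSP25. TOP2A, the topoisomerase of dividing cells, measured 172, 74.98, 42.7 and 28.7 TPM with mTORi, against 93.2, 81.3, 59.5 and 47.8 TPM without it. CCNB1, the mitotic cyclin, had 221, 98.2, 115 and 63.2 TPM with mTORi, against 129, 111, 181 and 134 TPM without it. Of the 8 libraries, both were highest in SNU1079 with mTORi alone and lowest in SSP25 with the combination. The 30 DNA replication genes had medians of 0.41, -0.20, -0.43 and -0.47 in the same order of pairs, with 2 lower in all 4. In bulk RNA, fewer cycling cells and less of these mRNAs per cell cannot be told apart.

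**Figure D5:**
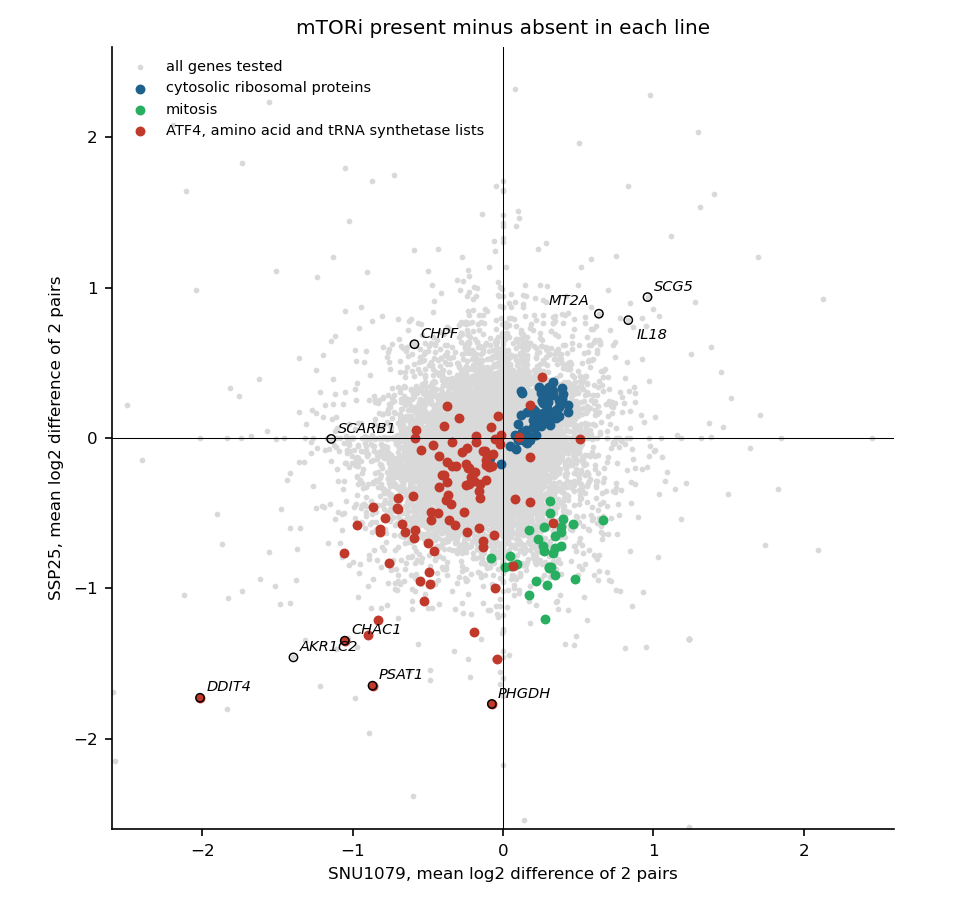
Mean log2 difference of both SSP25 pairs (vertical) against that of both SNU1079 pairs (horizontal) for each gene tested, mTORi present minus absent, with 15 genes beyond the axes at 2.6 not drawn. Genes of the ATF4, amino acid and tRNA synthetase lists lie mostly low in both lines, ribosomal protein genes slightly high in both, and mitosis genes low in SSP25 only.

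Tests of the difference itself gave 0 calls, both for the line (SSP25 minus SNU1079, smallest adjusted p = 0.0692 in limma's fit) and for BETp (pairs with BETp minus pairs without, smallest adjusted p = 0.211), each with 0% of genes called. At an unadjusted p under 0.05 there were 2282 genes for the line and 358 for BETp. For the line, the protein-coding genes of at least 5 TPM on average that came nearest to a call were SCARB1, the HDL receptor, SAT1, which acetylates spermidine, and CHPF, a chondroitin synthase subunit, in 1 direction. SCARB1 was at 65.2, 64.7, 89.04 and 98.6 TPM with mTORi, against 146, 143, 89.2 and 99.2 TPM without it. It was lower with mTORi in SNU1079 and level in SSP25 (line difference 1.14 ± 0.09, adjusted p = 0.194). SAT1 had 186, 211, 134 and 178 TPM with mTORi, against 374, 364, 117 and 142 TPM without it (line difference 1.15 ± 0.11, adjusted p = 0.213), and CHPF 50.9, 57.5, 184 and 175 TPM with mTORi, against 80.9, 82.96, 110.2 and 122 TPM without it (line difference 1.21 ± 0.12, adjusted p = 0.213). In the other direction stood PHGDH (-1.69 ± 0.17), KIAA0101, a PCNA-binding protein (-1.24 ± 0.18), and CAV1, the main protein of caveolae (-1.11 ± 0.12), with adjusted p from 0.213 to 0.227. With a filter of 5 TPM in place of 1, 9 genes were called for the line, SCARB1, SAT1 and CHPF among them, at adjusted p = 0.0242, 0.0395 and 0.0417. The others were DLEU2_6, HMSD, RNVU1-7, SNORA4, SNORA7A and SNORD10, each at 0 TPM in some of the libraries. For BETp, the nearest under the same rule were HIST1H2BJ (1.05 ± 0.27), CBWD3 (0.81 ± 0.20) and NPIPB3 (0.75 ± 0.22) in 1 direction and AL109927.1 (-2.14 ± 0.30), SYNJ2BP-COX16 (-1.73 ± 0.44) and NAPRT (-0.71 ± 0.19) in the other, all at adjusted p = 0.999. A p that misses the threshold with 4 pairs does not show that the effect of mTORi was alike with and without BETp.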

How the data were processed

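The 8 RNA sequencing libraries (strand-specific, dUTP method) were compared. The authors deposited TPM values for 56269 genes, in a separate table for either cell line. The submitters' processing notes list GRCh37, DESeq2 and edgeR. Which aligner and annotation made the values is not given in the sources used here. Library totals ran from 998559 to 999362 TPM, and depth is lost in this unit, so no counting error could be given. No 2 libraries held identical values, and columns were matched to samples by title.

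Values were transformed to log2(TPM + 1), and the fit took the 16060 genes that 2 or more libraries held at 1 TPM or above. The pairing comes from the design: each library with mTORi has 1 partner of the same cell line and BETp state. A model of pair and mTORi was fitted with limma 3.58.1 in R 4.3.3 (eBayes with trend, 3 residual degrees of freedom, two-sided, Benjamini-Hochberg adjustment, calls at 0.05), with an added mTORi-by-line or mTORi-by-BETp term for differences (2 residual degrees of freedom). An exact sign-flip test over 4 pairs cannot go below p = 0.125. The model of pair and mTORi was tested on simulated data. Those with an added term were not.

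Members, the 49 gene lists and tests were chosen with earlier results of these data known, and lists are described by counts and medians alone. Named genes were the 12 largest called rises and falls with 1 sign in all pairs and a mean of at least 5 TPM (9 rises qualified, and 3 uncalled genes of the largest smallest-pair rise were added), up to 5 called and 2 uncalled members of each list with a call, 15 pathway genes, the 3 nearest genes in each direction of both differences, and the 3 largest smallest-pair rises and falls. All other genes were named after their values were seen, and a few genes under the rule are not reported here. Alternatives were pseudocount 0.1, no filter, a 5 TPM filter, quantile normalization, rescaling, robust eBayes, additive terms, no block, leaving out each pair, and median centring, chosen after seeing the data. Positions (GRCh37) were taken from GENCODE by symbol, which gave 33168 genes a place.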

Additional observations from a re-analysis of the deposited data

Results flagged for a closer look

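In 5 of 163 gene differences and list medians examined, 1 pair stood far from the other 3, where chance flags about 1 in 20. For DDIT4 the pair of mTORi against vehicle in SSP25 was -1.42, against -2.05 and -1.98 in SNU1079 and -2.03 in SSP25 with BETp. The same pair gave the median of the tRNA synthetases, at -0.61 against -0.38 in the other 3. The pair of mTORi against vehicle in SNU1079 gave the medians of purine and pyrimidine synthesis (0.05), cytosolic chaperones (0.03) and the MYC, MAX and MXD network (-0.26), against -0.27 to -0.23, -0.18 to -0.15 and 0.01 to 0.04 in the other 3 pairs.

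In 3 lists both pairs of 1 group had a median on 1 side of 0 and both pairs of the other group on the opposite side, a difference that was not tested. Lysosome, V-ATPase and TFEB targets averaged 0.03 in SSP25 pairs and -0.19 in SNU1079 pairs, and core and linker histones 0.17 in SSP25 and -0.26 in SNU1079. AP-1, EGR and ERK feedback genes averaged 0.06 in pairs with BETp and -0.10 in pairs without.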

How the results depend on the processing

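All 105 calls kept their direction under each alternative run (101 of 101 that passed the 5 TPM filter), but the number of calls varied. All 105 had the same sign, and stayed on the same side of the pair median, in all 4 pairs. Only quantile normalization and rescaling could therefore have reversed a direction. Higher and lower genes were 6 and 42 with pseudocount 0.1, 0 and 0 without a filter (29421 genes, 3940 at an unadjusted p under 0.05), 62 and 414 with a 5 TPM filter, 4 and 7 with quantile normalization, 2 and 4 after rescaling without mitochondrial and ribosomal protein mRNAs, 6 and 7 with median centring, 0 and 0 with robust eBayes without trend (3354 unadjusted), and 26 and 142 with additive terms for line and BETp. Without the pairing, and so with no replicate block, they were 0 and 0 (268 unadjusted). The share of higher genes was 11.4% as reported, 36.4% with quantile normalization, 33.3% after rescaling and 46.2% with centring. Leaving out 1 pair gave 0 higher and 0 to 2 lower genes, fitted on 3 pairs. The causes were not tested.

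Genes higher and lower in all pairs were 2055 and 2082 with centring, 1891 and 1825 with quantile normalization and 1395 and 2523 after rescaling, and higher 1109 to 1261 when 1 pair was left out. Genes of at least 0.5 in all pairs, higher and lower, were 32 and 133 with pseudocount 0.1, 19 and 28 with centring and 21 and 31 with quantile normalization, 21 higher after rescaling, and 21 to 28 higher and 115 to 137 lower with 1 pair left out. Calls for the line difference were 9 with the 5 TPM filter and 0 under all other alternatives run, as were those for BETp throughout.

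Of 48 list medians, 11 changed sign with quantile normalization, 7 with centring and 4 after rescaling, among them mTOR complex subunits (-0.08 as reported, 0.03 with centring), cholesterol synthesis (-0.07 and 0.04) and lysosome genes (-0.03 and 0.07). Low genes, whose counting error is unknown, are the least certain.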

Other observations

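Other called genes fell outside the lists. PPARG, the nuclear receptor of lipid storage, fell by nearly the same step in all 4 pairs (-0.58 ± 0.07, limma adjusted p = 0.0378), at 16.2, 13.8, 27.99 and 24.7 TPM with mTORi, against 24.3, 21.4, 41.5 and 37.7 TPM without it. TFRC, the transferrin receptor, measured 39.9, 45.03, 139 and 161 TPM with mTORi, against 74.7, 87.1, 210.3 and 212 TPM without it (-0.70 ± 0.10). MKNK2, a kinase of the cap-binding factor eIF4E, fell without overlap between the groups (-0.70 ± 0.09), as did GLI1, the transcription factor of Hedgehog signalling (-1.0 ± 0.13), which was at most 2.36 TPM in any library. NRG1, a ligand of ERBB3 (-0.76 ± 0.09), TSC22D3, the glucocorticoid-induced leucine zipper protein (-0.80 ± 0.09), BIRC3, an inhibitor of apoptosis (-0.84 ± 0.10), and TNFSF10, the death ligand TRAIL (-0.82 ± 0.11), fell too. These genes were named after their values were seen.

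IRS2, an adaptor of the insulin receptor and known to be held down by mTOR signalling and raised by FOXO factors, was likewise picked after its values were seen. It measured 7.52, 10.4, 5.48 and 7.78 TPM with mTORi, against 5.51, 5.82, 3.34 and 4.94 TPM without it, higher in all 4 pairs without a call (0.57 ± 0.10, limma adjusted p = 0.0605). Of the 17 genes tested in its list of receptor feedback and FOXO targets, 3 were higher and 4 lower in all 4 pairs and 0 were called in limma's fit (2 higher and 2 lower at an unadjusted p under 0.05). Of 31 proteasome subunits 24 were lower in all 4 pairs, at a list median of -0.20 (-0.09 with quantile normalization and with centring, -0.11 after rescaling without mitochondrial and ribosomal protein mRNAs), of which 9 lay below the pair median in all 4, and 0 were called in limma's fit (20 lower at an unadjusted p under 0.05).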
